A study of Sus scrofa with 4 samples.

Results

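Osteopontin (SPP1), fibronectin (FN1), the osteopontin and hyaluronan receptor CD44 and 7 integrin subunits (ITGAV, ITGA5, ITGB1, ITGB3, ITGB5, ITGB6 and ITGB8) were followed across the cell types of pig embryos and endometrium on days 12 and 9 of pregnancy. They were taken by gene symbol from the 21280 genes of the deposited tables, where 9 of the 10 carry their symbol. ITGA5 stands there under its Ensembl identifier, ENSSSCG00000000293, and was named from a reference table of gene names. The study profiled 4 groups by 3′ droplet single-cell RNA sequencing, namely embryos of day 12, embryos of day 9, and endometrium of day 12 and of day 9. Each group held 1 library, strain and number of animals are not given in the labels, and the labels name no treatment. Embryos were dispersed with papain and dispase, endometrium with collagenases and dispase, so the tissues were not prepared alike.

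Osteopontin and fibronectin are extracellular ligands that carry an Arg-Gly-Asp motif, which integrins bind. An integrin is a pair of an alpha and a beta chain. ITGAV pairs with ITGB1, ITGB3, ITGB5, ITGB6 or ITGB8, and ITGA5 with ITGB1 forms the classical fibronectin receptor. In the pig the conceptus does not invade the uterus, and its trophectoderm attaches to the uterine luminal epithelium through such ligands and receptors, with uterine osteopontin among the best known. In the reference annotation of Sscrofa11.1, the build named in the submitters' processing notes, SPP1 lies on chromosome 8 (131077786 to 131085334), and FN1 (117658158 to 117737145), ITGAV (91604666 to 91711843) and ITGB6 (67041516 to 67175409) lie on chromosome 15. ITGB1 lies on chromosome 10 (56078393 to 56130608) and ITGB5 on chromosome 13 (135468111 to 135587483). CD44 lies on chromosome 2 (25788699 to 25884209), ITGA5 on 5 (19587361 to 19610580), ITGB3 on 12 (16694466 to 16752228) and ITGB8 on 9 (89342245 to 89450701).

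After filtering, 6671 cells of the day 12 embryo, 7000 of the day 9 embryo, 8962 of the day 12 endometrium and 7984 of the day 9 endometrium remained, with medians of 9297, 11883.5, 2233 and 2639 UMIs (molecules counted once) per cell. Any pair of libraries shared 54 to 105 cell barcodes, at most 1.32% of a library's cells. Each library was clustered alone, without the 10 genes, and clusters were named from marker genes. Levels are CPM, the usual scaling of the summed UMIs of a class in a library to its total, with exact 95% Poisson intervals. Ratios of day 12 over day 9 have exact 95% binomial intervals. All intervals cover counting error only, and with 1 library per group no difference between days has a replicate check or a test. A ratio was called when it passed 2-fold with an interval that excluded 1 and a level of 5 CPM on either day. In the endometrium, 1 epithelial cluster of day 12 (number 8) had S100A12, a granulocyte marker, and 1 stromal cluster of day 9 (number 3) had RGS5, a pericyte marker, among their 10 leading genes. Both had most markers of their own class high (10 of 12 and 13 of 14), and these classes are called epithelial clusters and stromal clusters and are also given by cluster number.

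**Figure D1:**
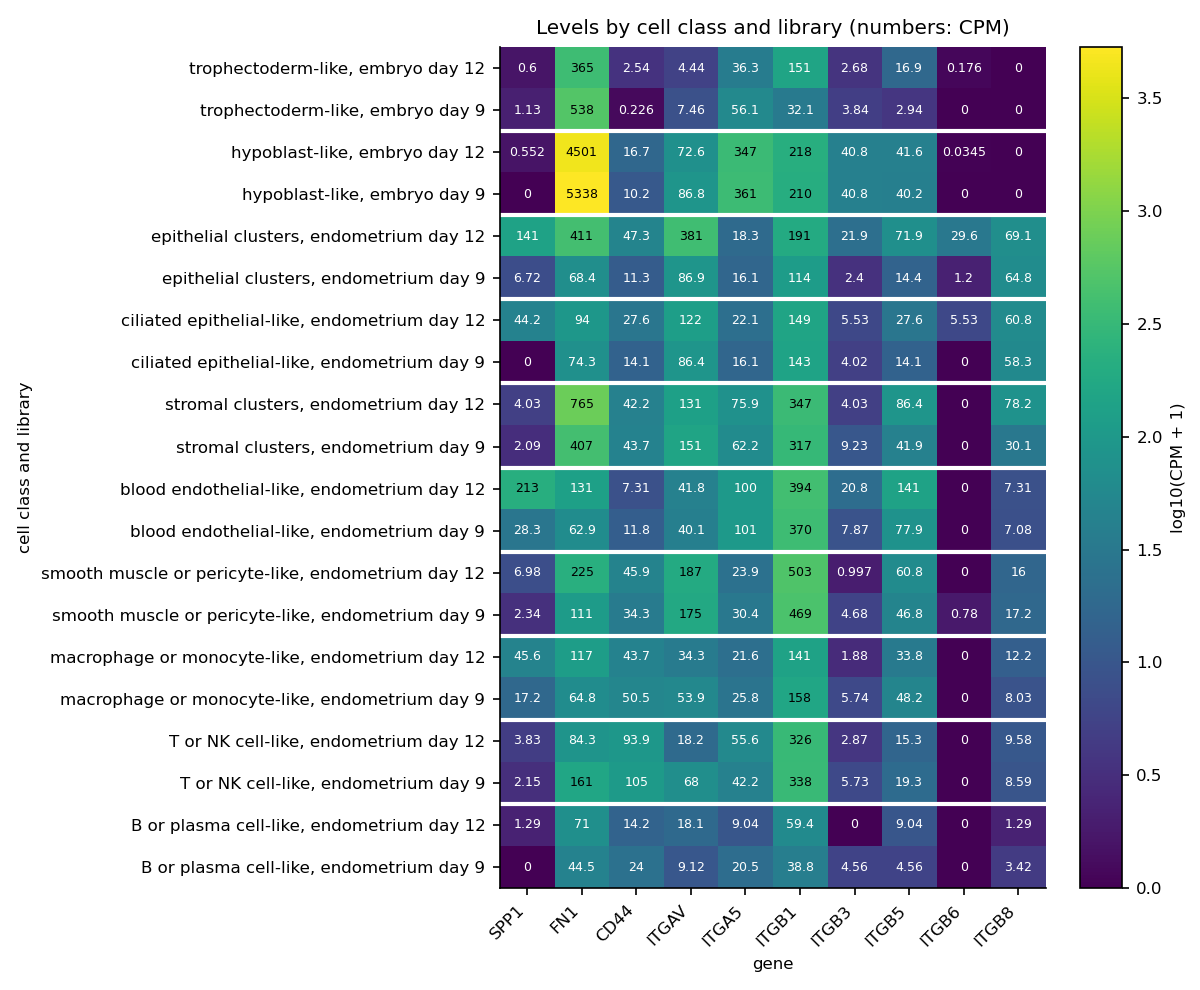
Levels of the 10 genes (columns) in cell classes with both days shown (rows, day 12 above day 9), as CPM of the summed UMIs of the class; colour gives log10(CPM + 1). FN1 and ITGA5 were highest in hypoblast-like cells, SPP1 in day 12 endothelial-like cells and epithelial clusters, and ITGB6 in the day 12 epithelial clusters.

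The endometrial epithelium was the class in which most of the 10 genes differed between the days. In the epithelial clusters 7 of the 10 were called higher on day 12 and none lower, beside 11.3% of 10502 genes called higher and 14.9% called lower by the same rule. The median log2 ratio of the 10 was 2.18, and that of all genes was -0.16. The class held 354 cells on day 12 and 675 on day 9, with median depths of 3482.5 and 4236 UMIs. The 11 measured genes of the dissociation response, which cells switch on while tissue is being digested, held 1 called higher and none lower here. Their median log2 ratio was 0.53, beside the -0.16 of all genes. Their summed level was 15769 and 14066 CPM in the day 12 epithelial clusters and 11269 and 10656 CPM in the day 9 ones. The part of this response in the ratios was not tested.

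Among the ligands, SPP1 was at 141 CPM on day 12 (200 UMIs, interval 122 to 162) and 6.72 CPM on day 9 (28 UMIs, 4.46 to 9.71), a ratio of 21.0 (14.1 to 32.4). FN1 was at 411 CPM on day 12, against 68.4 CPM on day 9, a ratio of 6.003 (5.20 to 6.94). Both ligands thus stood several-fold higher in the day 12 epithelial clusters, with day intervals that did not overlap.

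Among the receptors, ITGAV, the alpha chain of several osteopontin-binding integrins, was at 381 CPM on day 12, against 86.9 CPM on day 9 (4.38-fold, 3.83 to 5.02). ITGB6, a beta chain of epithelia that pairs with ITGAV, was at 29.6 CPM (42 UMIs) on day 12, against 1.2 CPM (5 UMIs) on day 9, a ratio of 24.7 (9.78 to 79.96). ITGB3, another partner of ITGAV, was at 21.9 CPM (31 UMIs) on day 12, against 2.40 CPM (10 UMIs) on day 9, a ratio of 9.11 (4.35 to 20.8). The last 2 ratios rest on few molecules, which their wide intervals show. ITGB5, the beta chain of a vitronectin receptor, was at 71.9 CPM on day 12, against 14.4 CPM on day 9 (4.997-fold, 3.598 to 6.99). CD44 was at 47.3 CPM on day 12, against 11.3 CPM on day 9 (4.19-fold, 2.84 to 6.22), and at 2.43-fold (1.02 to 5.91) when every cell was thinned to 1000 UMIs. The 2 chains of the fibronectin receptor were not called: ITGA5 was at 18.3 CPM on day 12, against 16.1 CPM on day 9 (ratio 1.14, 0.696 to 1.82), and ITGB1 at 191 CPM on day 12, against 114 CPM on day 9 (1.67, 1.44 to 1.95), under the 2-fold call. ITGB8, which with ITGAV activates latent TGF-beta, was at 69.1 CPM on day 12, against 64.8 CPM on day 9 (1.07, 0.838 to 1.35).

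The epithelial clusters differed among themselves. FOXA2, a transcription factor of uterine glands, was at 0 CPM in day 12 cluster 8 (296 cells) and 28.9 CPM in day 12 cluster 13 (58 cells), against 1.66 CPM in day 9 cluster 6 (371 cells) and 78.3 CPM in day 9 cluster 8 (304 cells). Pairing the clusters by FOXA2 was chosen after its values were seen. Of the clusters low in FOXA2, day 12 cluster 8 held SPP1 at 158 CPM (137 to 182) and day 9 cluster 6 at 12.8 CPM (8.08 to 19.1), a ratio of 12.4 (8.04 to 20.04). Of the clusters higher in FOXA2, day 12 cluster 13 held SPP1 at 17.3 CPM (3 UMIs, 3.58 to 50.7) and day 9 cluster 8 at 2.12 CPM (5 UMIs), a ratio of 8.19 (1.27 to 42.1). Of the 200 SPP1 UMIs of day 12, 197 were thus in cluster 8. It is the cluster with S100A12 among its leading genes, and without it SPP1 had a ratio of 2.58 (0.502 to 8.35), which was not called. Without it ITGAV had a ratio of 2.73 (1.92 to 3.77), FN1 of 3.13, ITGB5 of 2.81, CD44 of 5.12 and ITGB6 of 14.4, all still called. ITGB3 lost its call as well: without cluster 8 it had no UMI on day 12 and 2.40 CPM on day 9, under the minimum of 5 CPM. Day 12 cluster 13 then stands alone, and ITGB6 rests there on few UMIs, against 5 on day 9. The summed level of 14 stromal markers was 14985 CPM in cluster 13 and 7127 CPM in day 12 cluster 8. In day 9 clusters 6 and 8 it was 7464 and 5611 CPM, and its part in these ratios was not tested.

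Over all 4 pairings of a day 12 with a day 9 epithelial cluster, the intervals lay above 1 in 4 for FN1 (2.52 to 7.84), CD44 (2.75 to 8.03), ITGAV (2.41 to 5.56) and ITGB6 (10.4 to 37.0). They lay above 1 in 3 of 4 for SPP1 (1.36 to 74.8) and ITGB5 (2.03 to 7.52). The ITGB6 pairings rest on 42 UMIs in the day 12 clusters together, few of them in cluster 13, and on 5 in the day 9 ones. ITGB3 had no UMI in day 12 cluster 13, where a count of 0 allows up to 17.3 CPM. ITGB8 varied with the cluster: it was at 68.3 CPM in cluster 8 and 75.1 CPM in cluster 13 on day 12, against 28.3 CPM in cluster 6 and 92.7 CPM in cluster 8 on day 9, and its ratios ran from 0.737 to 2.66.

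**Figure D2:**
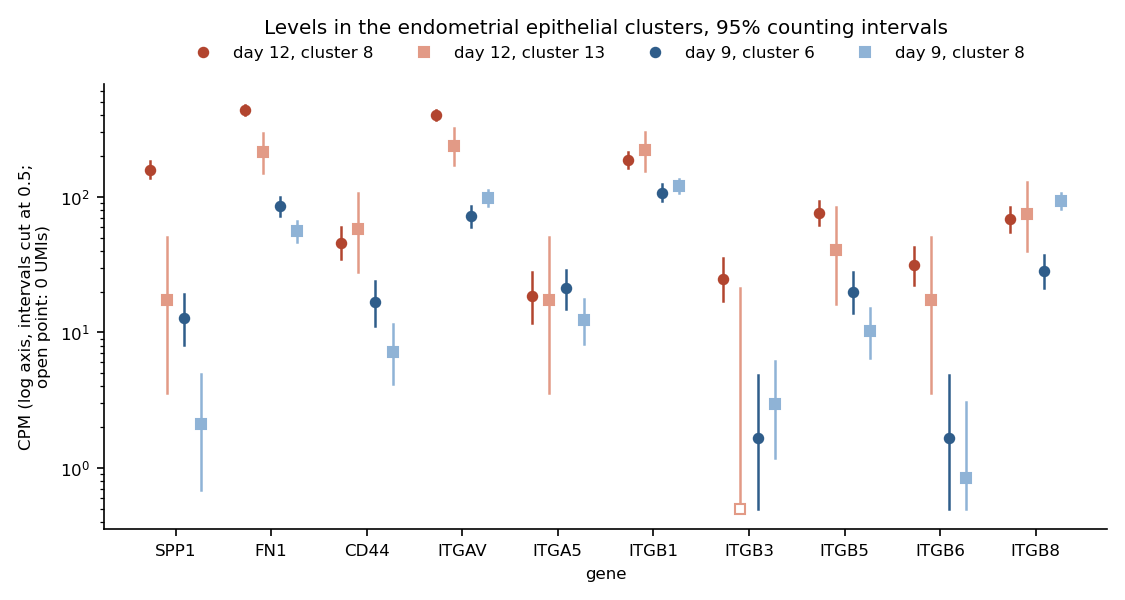
Levels of the 10 genes in the 2 endometrial epithelial clusters of day 12 and the 2 of day 9 (points, CPM on a log axis; bars, 95% Poisson intervals; squares, the clusters higher in FOXA2). For FN1, CD44, ITGAV and ITGB6 both day 12 clusters lay above both day 9 clusters, and for ITGA5 the 4 intervals overlapped.

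Markers of other cell types were counted in the epithelial clusters, and their part in the ratios was not tested. The 14 stromal markers stood there at 7.53 to 48.7% of their stromal level on day 12 (median 11.7%) and at 8.25 to 19.8% on day 9 (median 12.4%). FN1 stood at 53.7% of its stromal level on day 12 (49.3 to 58.4%) and at 16.8% on day 9 (14.9 to 18.9%), above the range of those markers on day 12 and inside it on day 9. ITGA5 stood at 24.2% on day 12 and 25.8% on day 9. ITGAV stood at 291% on day 12 and 57.5% on day 9, and ITGB5 at 83.3% on day 12 and 34.3% on day 9. For SPP1, the summed level of 11 endothelial markers was 77.1 and 116 CPM in the day 12 epithelial clusters, 48.2 and 25.8 CPM in the day 9 ones, and 3255 CPM in the day 12 endothelial-like cells, where SPP1 was 213 CPM. The summed level of 17 trophectoderm markers, of which 7 and 10 were at 0 on day 12 and 8 and 9 on day 9, was 1809 and 1231 CPM in the day 12 epithelial clusters and 3384 and 1487 CPM in the day 9 ones. The trophectoderm list shares KRT8, KRT18, KRT19 and ELF3 with the epithelial list. That sum therefore does not separate conceptus RNA from RNA of the epithelium itself.

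The receptor chains were also found in the same cells. With every cell thinned to 1000 UMIs, ITGAV had a UMI in 107 of the 354 epithelial cells of day 12 and in 57 of the 675 of day 9. UMIs of both ITGAV and ITGB1 were in 6.50% of day 12 cells (4.16 to 9.59%) and 1.33% of day 9 cells (0.611 to 2.52%). UMIs of both ITGAV and ITGB5 were in 3.11% of day 12 cells (1.56 to 5.49%) and 0.148% of day 9 cells (0.00375 to 0.823%). UMIs of both ITGAV and ITGB6 were in 1.69% (6 cells, 0.624 to 3.65%) of day 12 cells and in 0 of the 675 day 9 cells, which allows up to 0.444%. Presence of both RNAs in a cell moves with the level of each and does not show an assembled receptor.

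Across the endometrium SPP1 had its highest level in day 12 blood endothelial-like cells, the lining of the uterine vessels. It was at 213 CPM there (933 UMIs, 199.6 to 227) and at 28.3 CPM on day 9 (36 UMIs, 19.8 to 39.2), a ratio of 7.52 (5.40 to 10.8). In this class 3 of the 9 genes at 5 CPM or more were called higher and none lower, beside 4.07% of 9845 genes called higher and 8.21% called lower. FN1 was at 131 CPM on day 12, against 62.9 CPM on day 9 (2.08-fold, 1.65 to 2.67), a call lost at a finer clustering (1.68, 1.32 to 2.15). ITGB3 was at 20.8 CPM (91 UMIs) on day 12, against 7.87 CPM (10 UMIs) on day 9 (2.64-fold, 1.37 to 5.70), and was not called with cells thinned to 1000 UMIs (3.71, 0.581 to 155). ITGB5 was at 141 CPM on day 12, against 77.9 CPM on day 9 (1.81, 1.46 to 2.26), while ITGB1, ITGA5 and ITGAV had ratios of 1.06, 0.986 and 1.04 with intervals that contained 1.

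Osteopontin RNA was spread over many endothelial-like cells rather than a few. A SPP1 UMI was in 291 of 807 cells on day 12, the highest cell had 29 UMIs and the 10 highest cells held 20.8% of the UMIs; on day 9 it was in 23 of 176 cells. In the epithelial clusters it was in 107 of 354 cells on day 12, with up to 18 UMIs, and in 26 of 675 on day 9, with up to 2. At 1000 UMIs per cell SPP1 was found in 14.0% of day 12 endothelial-like cells (11.7 to 16.6%) and 3.41% of day 9 ones (1.26 to 7.27%), and in the epithelial clusters in 9.04% of day 12 cells (6.27 to 12.5%) and 0.593% of day 9 cells (0.162 to 1.51%). In stromal clusters, taken as the background for SPP1, the share was 0.391% on day 12 (0.245 to 0.591%) and 0.315% on day 9 (0.180 to 0.511%). Median depths were 3066 UMIs on day 12 and 5983.5 on day 9 in endothelial-like cells, and 2173.5 on day 12 and 2682 on day 9 in stromal clusters. The day 9 epithelial share, 4 of 675 cells, had an interval that overlapped the day 9 stromal one, and the other 3 shares lay above the stromal shares. By level, SPP1 in the day 9 epithelial clusters (6.72 CPM, 4.46 to 9.71) lay above that in the day 9 stromal clusters (2.09 CPM, 1.42 to 2.97), so no order was read from the share. The ratio of 21.0 in epithelial clusters rests on 28 UMIs of day 9, at a share of cells not separated from the stromal one.

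**Figure D3:**
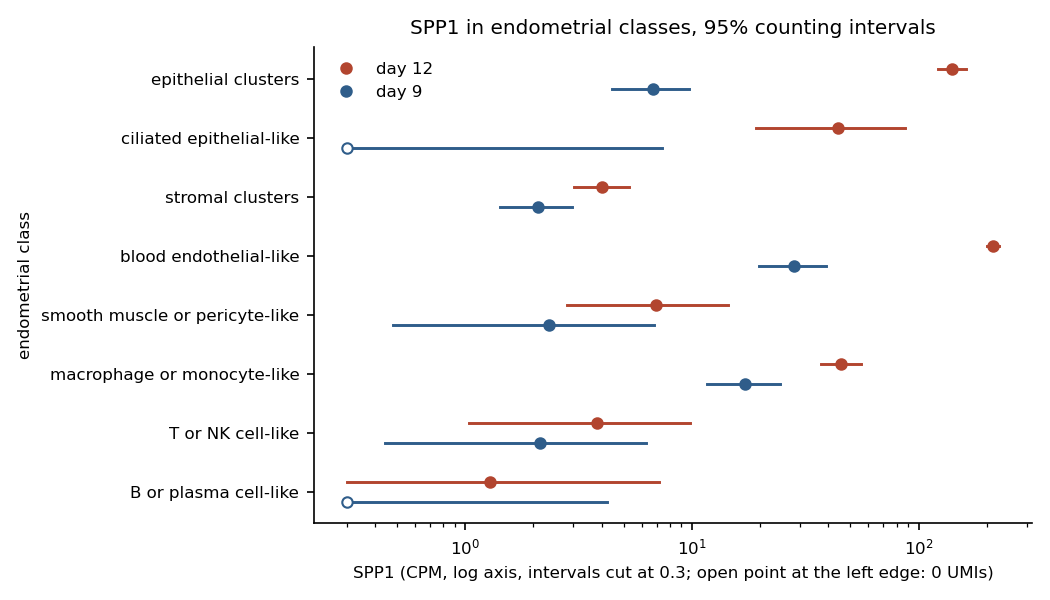
SPP1 in the endometrial classes on day 12 (red, upper point of each pair) and day 9 (blue), in CPM on a log axis with 95% Poisson intervals; open points mark 0 UMIs. Day 12 endothelial-like cells (213 CPM) and epithelial clusters (141 CPM) lay above every other class, followed by day 12 macrophage or monocyte-like cells (45.6 CPM).

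Macrophage or monocyte-like cells, a usual source of osteopontin, held SPP1 at 45.6 CPM on day 12 (97 UMIs) and 17.2 CPM on day 9 (30 UMIs), a ratio of 2.65 (1.74 to 4.14). It was the only 1 of the 10 genes called there, beside 5.87% of genes called higher and 9.43% called lower, and 10 cells held 64.9% of its day 12 UMIs. In ciliated epithelial-like cells, too few on day 12 for a ratio (43 cells, 91 on day 9), SPP1 had 8 UMIs on day 12 (44.2 CPM, 19.1 to 87.1) and 0 on day 9, which allows up to 6.03 CPM. Stromal clusters, smooth muscle or pericyte-like cells, T or NK cell-like cells and B or plasma cell-like cells all held SPP1 at 0 to 6.98 CPM on both days. Leaving out the day 12 ciliated epithelial-like cells, whose wide interval overlapped those of several classes, the order of SPP1 levels was day 12 endothelial-like cells, then day 12 epithelial clusters, without overlap, and then day 12 macrophage or monocyte-like and day 9 endothelial-like cells, whose intervals overlapped.

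Stromal clusters, the connective tissue under the epithelium, carried the highest endometrial FN1. It was at 765 CPM on day 12 (5628 cells) and 407 CPM on day 9 (5080 cells), a ratio of 1.88 (1.82 to 1.94), under the 2-fold call, and lay above 1 in all 12 pairings of a day 12 with a day 9 stromal cluster (1.18 to 2.90). Of the 8 genes at 5 CPM or more, 2 were called higher (6.65% of 10111 genes were) and 1 lower (9.12%). ITGB8 was at 78.2 CPM on day 12, against 30.1 CPM on day 9 (2.60-fold, 2.32 to 2.91), but varied among the clusters, from 39.4 to 118 CPM on day 12 and from 18.9 to 70.6 CPM on day 9, and its interval lay above 1 in 8 of 12 pairings. ITGB5 was at 86.4 CPM on day 12, against 41.9 CPM on day 9 (2.06-fold, 1.87 to 2.27), and at 1.93-fold (1.73 to 2.15) in cells of 2000 UMIs or more. ITGB3 was at 4.03 CPM on day 12, against 9.23 CPM on day 9, a ratio of 0.437 (0.313 to 0.603), and 0.579 (0.336 to 0.981, not called) with cells thinned to 1000 UMIs. ITGAV, ITGA5, ITGB1 and CD44 had ratios between 0.867 and 1.22 there.

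In the other endometrial classes few of the 10 genes passed the call. FN1 in smooth muscle or pericyte-like cells was at 225 CPM on day 12, against 111 CPM on day 9 (2.03-fold, 1.64 to 2.53; 6.17% of genes were called higher and 5.42% lower), and between 2.03-fold and 3.26-fold under the alternatives tried. Of its 226 UMIs on day 12, 10 of 391 cells held 48.2%, and of its 142 on day 9, 10 of 571 cells held 32.4%. In T or NK cell-like cells ITGAV was at 18.2 CPM on day 12, against 68.0 CPM on day 9 (ratio 0.268, 0.154 to 0.441; 18.7% of genes were called lower and 5.22% higher). That call did not hold in cells of 2000 UMIs or more (0.782), at 10% mitochondrial UMIs or less (0.944) or at a finer clustering (0.918), and the summed level of 14 stromal markers in this class was 4563 CPM on day 12 and 20504 CPM on day 9. B or plasma cell-like cells had 0 called, beside 2.18% of genes called higher and 10.1% called lower. CD44 and ITGB1 levels differed more between cell types than between days: CD44 was highest in T or NK cell-like cells (93.9 CPM on day 12 and 105 CPM on day 9, overlapping), and ITGB1 in smooth muscle or pericyte-like cells (503 CPM on day 12 and 469 CPM on day 9, overlapping).

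In the endometrium nearly all ITGB6 UMIs were in the epithelial clusters, 42 of 43 on day 12 and 5 of 6 on day 9. Outside the epithelial clusters it had 1 UMI in ciliated epithelial-like cells of day 12, 1 in smooth muscle or pericyte-like cells of day 9, and 0 in the stromal, endothelial-like, macrophage or monocyte-like, T or NK cell-like and B or plasma cell-like cells of both days. In the embryo it had 9 UMIs in all cells of day 12 and 0 in those of day 9. In the 5628 stromal cells of day 12 a count of 0 allows up to 0.224 CPM.

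In the embryo the ligand with the highest level was fibronectin of the hypoblast, the layer that lines the yolk sac and lays down basement membrane. FN1 in hypoblast-like cells was at 4501 CPM on day 12 (2552 cells, 4476 to 4525) and 5338 CPM on day 9 (5865 cells, 5322 to 5355), a ratio of 0.843 (0.838 to 0.848). The fibronectin receptor chain ITGA5 also had its highest levels there, 347 CPM on day 12 and 361 CPM on day 9 (0.961, 0.940 to 0.984). On day 12 ITGB1 was at 218 CPM, ITGAV at 72.6, ITGB5 at 41.6, ITGB3 at 40.8 and CD44 at 16.7 CPM. On day 9 ITGB1 was at 210 CPM, ITGAV at 86.8, ITGB5 at 40.2, ITGB3 at 40.8 and CD44 at 10.2 CPM. None of the 7 genes at 5 CPM or more was called in either direction, beside 13.0% of 8236 genes called higher and 10.7% called lower. Their ratios ran from 0.836 to 1.64, the last for CD44. UMIs of both ITGA5 and ITGB1 were in 5.995% of hypoblast-like cells on day 12 (5.11 to 6.99%) and 6.002% on day 9 (5.41 to 6.64%) at 1000 UMIs per cell.

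Trophectoderm-like cells, the layer that meets the uterus, held little SPP1, and held FN1 well under its hypoblast-like level. SPP1 was at 0.5995 CPM on day 12 (17 UMIs in 3251 cells, 8 of them in 1 cell) and 1.13 CPM on day 9 (5 UMIs in 1 of 650 cells). FN1 was at 365 CPM on day 12, against 538 CPM on day 9, or 8.12% of its hypoblast-like level in the same library on day 12 (7.95 to 8.28%) and 10.1% on day 9 (9.68 to 10.5%). Hypoblast markers stood in trophectoderm-like cells at 3.61 to 28.1% of their hypoblast-like level on day 12 (median 7.55%, 14 markers) and at 6.995 to 23.4% on day 9 (median 10.7%, 13 markers). Day 9 embryo barcodes of 1 to 99 UMIs, taken here as free RNA, held FN1 at 3664 CPM and ITGA5 at 301 CPM. FN1, ITGAV (6.12% on day 12 and 8.59% on day 9), ITGA5 (10.5% on day 12 and 15.5% on day 9) and ITGB3 (6.57% on day 12 and 9.42% on day 9) in trophectoderm-like cells thus lay within the range of the hypoblast markers on both days. The part of hypoblast RNA in these levels was not tested, and free RNA was measured in the day 9 embryo alone.

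The beta chains ITGB1 and ITGB5 lay above the range of the hypoblast markers on day 12 and inside it on day 9. ITGB1 in trophectoderm-like cells was at 151 CPM on day 12 (4273 UMIs) and 32.1 CPM on day 9 (142 UMIs), a ratio of 4.69 (3.97 to 5.59), and stood at 69.1% (66.4 to 71.8%) of its hypoblast-like level on day 12 and 15.3% (12.85 to 18.01%) on day 9. ITGB5 was at 16.9 CPM on day 12 (480 UMIs) and 2.94 CPM on day 9 (13 UMIs), a ratio of 5.76 (3.34 to 10.9), and stood at 40.7% (36.5 to 45.2%) on day 12 and 7.30% (3.88 to 12.5%) on day 9. Both ratios thus have a day 9 level within the range of the hypoblast markers as their denominator. These were 2 of the 5 genes at 5 CPM or more, but 31.6% of 7770 genes were called higher in this class and 10.9% lower, so the share is near the background. Scaling to the median of genes that reached 50 CPM on each day, whose log2 ratio was -0.29, gave 5.73 for ITGB1 and 7.03 for ITGB5.

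**Figure D4:**
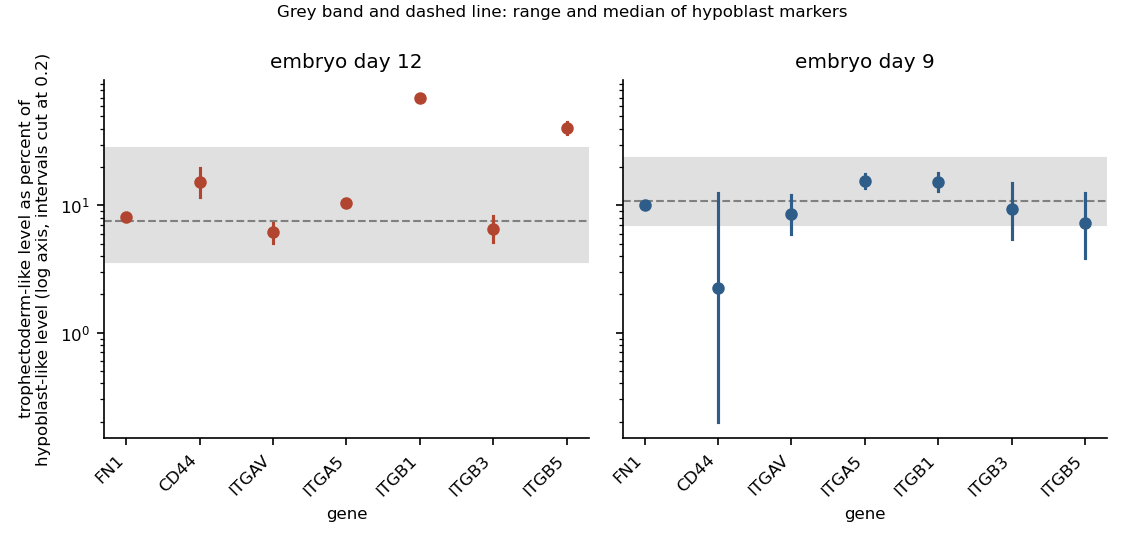
Level in trophectoderm-like cells as a percent of the level in hypoblast-like cells of the same library (points, log axis; bars, 95% binomial intervals), day 12 left and day 9 right; the grey band is the range and the dashed line the median of hypoblast markers. On day 12 ITGB1 (69.1%) and ITGB5 (40.7%) lay above the band, and on day 9 no gene did.

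Several measures moved with the 2 trophectoderm ratios, and their part in them was not tested. The 1 trophectoderm-like cluster of day 9 had a median of 0.546% mitochondrial UMIs, and the 4 of day 12 had 3.33% (cluster 1), 6.16% (cluster 3), 0.284% (cluster 6) and 3.12% (cluster 10). ITGB1 was at 172, 93.6, 59.8 and 172 CPM in those 4 clusters and ITGB5 at 16.96, 20.2, 5.92 and 14.8 CPM. Cluster 6, the one as low in mitochondrial UMIs as the day 9 cells, had the lowest levels of both, with ratios to day 9 of 1.86 (1.42 to 2.44) for ITGB1 and 2.01 (0.760 to 5.09) for ITGB5. Of the dissociation response genes at 5 CPM or more, 9 of 10 were called higher on day 12 in trophectoderm-like cells, with a median log2 ratio of 3.64. Of all genes there, 31.6% were called higher, with a median of 0.31. In hypoblast-like cells 9 of 10 were called higher, with a median of 1.87, beside 13.0% and -0.16 for all genes. The summed level of the 11 measured response genes was 4251, 3432, 2771 and 3898 CPM in day 12 clusters 1, 3, 6 and 10. In the day 9 trophectoderm-like cluster it was 2841 CPM. When day 9 embryo cells were called at 1000 UMIs, the ratios were 2.54 (2.28 to 2.82) for ITGB1 and 2.11 (1.58 to 2.88) for ITGB5.

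**Figure D5:**
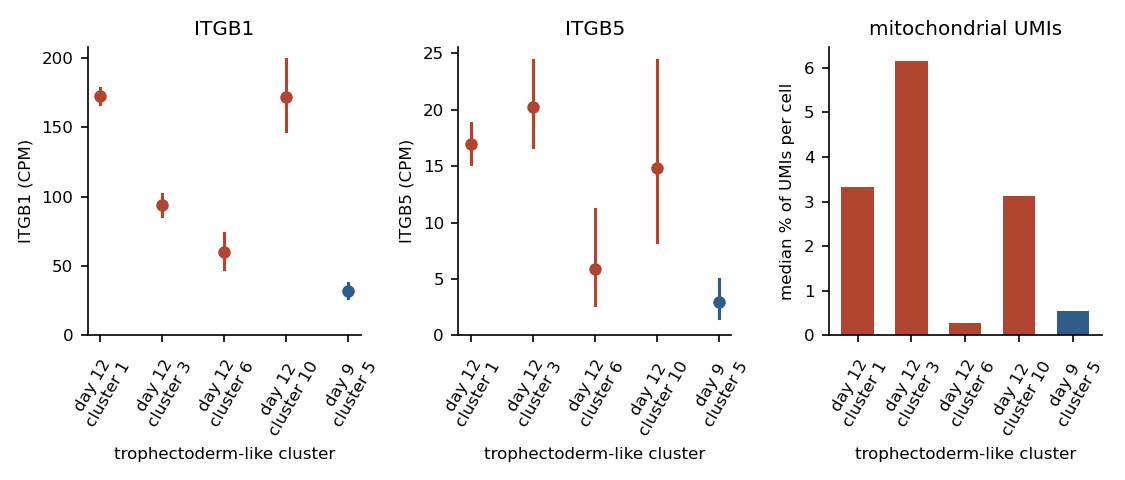
ITGB1 and ITGB5 levels (points, CPM; bars, 95% Poisson intervals) and the median percent of mitochondrial UMIs per cell (bars) in the 4 trophectoderm-like clusters of day 12 (red) and the 1 of day 9 (blue). Day 12 cluster 6, with 0.284% mitochondrial UMIs, had the lowest ITGB1 (59.8 CPM) and ITGB5 (5.92 CPM) of the day 12 clusters.

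The remaining receptor chains were scarce in trophectoderm-like cells. CD44 had 72 UMIs on day 12 (2.54 CPM) and 1 UMI on day 9 (0.226 CPM). ITGB6 had 5 UMIs in 3251 cells on day 12 and 0 in 650 cells on day 9, and ITGB8 had 0 on both days. With every cell thinned to 1000 UMIs, ITGAV had a UMI in 20 of 3251 trophectoderm-like cells on day 12 and 10 of 650 on day 9, too few to read its presence beside a beta chain. Of the smaller embryonic classes, extraembryonic mesoderm-like cells (199, day 12) held ITGA5 at 162 CPM and ITGB1 at 190 CPM, and epiblast-like cells held FN1 at 699 CPM on day 12 (142 cells) and 897 CPM on day 9 (21 cells). In the epiblast-like cells 10 cells held 47.2% of the FN1 UMIs on day 12 and 82.2% on day 9. The summed level of 15 hypoblast markers there was 5861 CPM on day 12 and 5496 CPM on day 9, against 25822 to 31717 CPM in the hypoblast-like clusters of day 12 and 22236 to 43262 CPM in those of day 9, and its part in the FN1 levels was not tested.

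Other genes of the same systems were read from lists. Of the other integrin chains in the epithelial clusters, 3 of 10 alpha chains were called higher and 2 lower, with a median log2 ratio of -0.33, and 0 of 2 beta chains, beside 11.3% of all genes called higher and 14.9% lower. The laminin receptor chain ITGA3 was at 68.4 CPM on day 12, against 18.7 CPM on day 9 (3.66-fold, 2.69 to 4.99), while ITGA6 and ITGB4, which pair in hemidesmosomes, had day 12 over day 9 ratios of 0.815 and 0.900. In trophectoderm-like cells ITGA6 was at 115 CPM on day 12, against 8.82 CPM on day 9, a ratio of 13.01 (9.495 to 18.3), the same direction as ITGB1, with which it can pair.

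The counts that follow for the epithelial clusters stand beside the same 11.3% of all genes called higher and 14.9% called lower. Of 13 other integrin ligands, 4 were called higher and 3 lower, with a median log2 ratio of 0.61 beside -0.16 for all genes. CCN1, a matrix protein that binds integrins, was at 458 CPM on day 12, against 102 CPM on day 9 (4.49-fold). The laminin chain LAMC1 was at 74.8 CPM on day 12, against 16.8 CPM on day 9 (4.45-fold), and nephronectin (NPNT) at 11.3 CPM on day 12, against 79.9 CPM on day 9 (ratio 0.141, 0.0798 to 0.233). Of 12 matrix proteases and inhibitors, 4 were called higher and none lower (median log2 ratio 0.39). The urokinase receptor PLAUR was at 87.5 CPM on day 12, against 9.84 CPM on day 9 (8.89-fold, 6.2 to 12.98), and urokinase (PLAU) at 32.4 CPM on day 12, against 7.68 CPM on day 9 (4.23-fold). Of 22 cytoplasmic adhesion complex genes, 2 were called higher and 2 lower (median log2 ratio 0.01), shares no larger than those of all genes: paxillin (PXN, 3.19-fold) and alpha-actinin ACTN4 (2.02-fold) stood higher, and ACTN1 (0.444) and TLN2 (0.434) lower. Of 10 hyaluronan and CD44 partners 2 were called higher, ezrin (EZR, 409 CPM on day 12 and 145 CPM on day 9) and HAPLN1.

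In trophectoderm-like cells the adhesion complex list had 7 of 22 called higher and 3 lower, near the 31.6% of all genes, with a median log2 ratio of 0.49 beside 0.31 for all genes. The kinase SRC was at 50.4 CPM on day 12, against 6.56 CPM on day 9 (7.69-fold) and the integrin activator kindlin-1 (FERMT1) at 189 CPM on day 12, against 27.1 CPM on day 9 (6.97-fold). Kindlin-2 (FERMT2) was at 22.6 CPM on day 12, against 96.3 CPM on day 9 (ratio 0.235), and talin-2 (TLN2) at 1.55 CPM on day 12, against 23.5 CPM on day 9 (0.0660). Of the ligands there, CCN2 was at 165 CPM on day 12, against 5.20 CPM on day 9 (31.8-fold). In stromal clusters 5 of 13 proteases and inhibitors were called higher, among them PLAUR (2.97-fold), and of 16 ligands 3 were called higher, among them COL4A1 (2.92-fold), and 3 lower, beside 6.65% of all genes called higher and 9.12% lower. The median log2 ratios there were 0.45 for the proteases and inhibitors and 0.39 for the ligands, beside -0.10 for all genes.

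Genes whose profile was most like that of a member were taken by Pearson correlation of log2(CPM + 1) over 21 class-by-library points among 6010 genes, as a description: points of 1 library share its depth and free RNA. For SPP1 these were BATF2 (0.884), NDFIP1 (0.841) and CYP26B1 (0.838). For ITGB6 they were SERPINB7 (0.951), FGG (0.937) and PTPRN (0.887), for ITGB8 CHRDL1 (0.952), CDKN1B (0.946) and KAT2B (0.940), and for FN1 FLRT3 (0.922), PXDN (0.885) and SLC7A8 (0.879). The ITGB6 correlations rest mainly on the day 12 epithelial clusters (29.6 CPM), as its median over the 21 points was 0 CPM. For the other 6 members the most alike genes were EMP3 (CD44, 0.907), PMM1 (ITGAV, 0.888), ADGRF4 (ITGA5, 0.851), MYADM (ITGB1, 0.928), ADAM10 (ITGB3, 0.808) and PROS1 (ITGB5, 0.934).

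Over the 9 classes compared, 90 ratios of a gene in a class were formed, of which 20 were under the minimum level, 16 were called higher on day 12 and 2 lower. The share of all genes called in a class ran from 2.18% to 31.6% higher and from 5.42% to 18.7% lower. Of the 16, 7 were in epithelial clusters, and 2 were in trophectoderm-like cells, the class with the 31.6%.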

How the data were processed

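The authors deposited raw UMI counts for each gene in each barcode; the submitters' processing notes name Cell Ranger 6.1.2 and the Sscrofa11.1 build, and the header of the day 9 embryo file names an older version. That file lists 657829 barcodes, 92991 of them with no UMI, whereas 8105 are listed for the day 12 embryo, 11757 for day 12 endometrium and 9483 for day 9 endometrium. Day 9 embryo cells were called at 2759.47 UMIs, which is 0.1 times the total at percentile 99 among the 3000 largest barcodes. Kept cells had at least 1000 UMIs and 500 genes, with mitochondrial UMIs no higher than 20%. Scrublet marked 93 doublets in the day 12 embryo, which were removed, and 1, 0 and 0 in the day 9 embryo, day 12 endometrium and day 9 endometrium, so it did not work there and doublets may remain.

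Each library was clustered alone with scanpy 1.11.5 (2000 variable genes without the 10 members, 30 components, 15 neighbours, Leiden resolution 0.6, seed 0). A marker was high at 0.5 of its highest cluster level. A class needed 3 high markers and a share of 0.4 of those detected, and 2 leading genes of another class left a cluster unnamed. A rule of 1 leading gene would have left day 12 epithelial cluster 8 and day 9 stromal cluster 3 unnamed; it was added as an alternative after the data were seen. Class names rest on 171 of 190 markers and are rebuilt here; 527 and 464 cells of the day 12 and day 9 embryo and 408 of the day 12 endometrium stayed unnamed. Levels are CPM of summed counts, and shares of cells were taken after thinning each cell to 1000 UMIs.

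The 10 members, the markers and the pathway lists (101 of 114 genes matched) were chosen with earlier results of these data known. Up to 4 genes per list and class are named, the 2 highest and 2 lowest ratios at 20 CPM or more; FOXA2, S100A12 and RGS5 were named after their values were seen. None of the 5 listed anti-adhesive surface proteins had a matching symbol. In simulated counts of 200 genes the ratio's interval held the simulated fold for 96.0% in the epithelial clusters and 93.5% in trophectoderm-like cells. Those counts were Poisson draws, the model that the interval assumes, without variation between cells, clusters or animals. They check the calculation and not whether the interval covers such variation in these data. Alternatives were a cell minimum of 2000 UMIs, 10% mitochondrial UMIs, Leiden resolution 1.0, scaling to the median ratio of genes that reached 50 CPM on each day, day 9 embryo cells called at 1000 UMIs, doublets kept and thinned cells.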

Additional observations from a re-analysis of the deposited data

Results flagged for a closer look

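In a cluster of 20 cells of the day 12 embryo (number 11), which no class holds, SPP1 was at 1039 CPM (72 UMIs in 10 cells, 813 to 1309) and ITGB3 at 274 CPM (19 UMIs, 165 to 428), both above the highest level in any class of the 4 libraries. The same cells held CD44 at 188 CPM, ITGAV at 173 CPM (12 UMIs) and ITGB6 at 43.3 CPM (3 UMIs). Their leading genes were S100A2, SPINK9 and THY1, and 7 of 11 epithelial markers but 2 of 17 trophectoderm markers were high; CDX2, TFAP2C, CYP11A1 and IL1B2 had no UMI, while KRT7, KRT8 and CLDN4 had 113, 111 and 207 UMIs. The tissue these cells came from was not tested.

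Day 12 over day 9 ratios of 2 integrin chains pointed in opposite directions in different endometrial classes, a difference that was not tested. ITGAV had a ratio of 4.38 in epithelial clusters and 0.268 in T or NK cell-like cells. The value in T or NK cell-like cells was 0.782 in cells of 2000 UMIs or more, 0.944 at 10% mitochondrial UMIs or less and 0.918 at a finer clustering, none of them called. The summed level of 14 stromal markers in that class was 4563 CPM on day 12 and 20504 CPM on day 9, and its part in the ratio was not tested. ITGB3 had a ratio of 9.11 in epithelial clusters, 2.64 in blood endothelial-like cells and 0.437 in stromal clusters.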

How the results depend on the processing

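Of the 143 values that the 18 called ratios took under the alternatives, 124 lay within the counting interval first given, 19 outside it and 0 on the other side of 1, and 8 lost the call. A further call was lost outside these 143 values. With 1 leading gene of another class unnaming a cluster, ITGB3 in epithelial clusters fell under the minimum level and had no ratio. In trophectoderm-like cells the ratio of ITGB1 was 5.73 with scaling to the median gene, 3.73 in thinned cells and 2.54 with day 9 embryo cells called at 1000 UMIs, where ITGB5 was at 2.11 and 6 members in place of 2 passed 2-fold, FN1, ITGAV, ITGA5 and ITGB3 as lower. With 1 leading gene of another class unnaming a cluster, the ratios in epithelial clusters were 2.58 for SPP1 and 2.73 for ITGAV, and 5 members passed. The other alternatives gave 17.6 to 22.4 for SPP1 and 21.8 to 34.3 for ITGB6 there, and 6.11 to 7.77 for SPP1 in blood endothelial-like cells. In T or NK cell-like cells the 1 call, ITGAV lower, was replaced at 10% mitochondrial UMIs by 2 members called higher, FN1 (3.40) and ITGB8 (9.61), while scaling to the median gene called 2 lower, ITGAV (0.249) and FN1 (0.487). FN1 was thus called in opposite directions there, beside 0.523, not called, as first given; ITGB8 alone was called at 2000 UMIs per cell (3.77) and FN1 alone at a finer clustering (3.02), both higher. Members past 2-fold in thinned cells were 3 in place of 1 in macrophage or monocyte-like cells, with ITGB8 higher (6.13) and ITGAV lower (0.380) added, and 2 in place of 1 in smooth muscle or pericyte-like cells, with CD44 higher (2.13) added; the causes were not tested. Called higher and lower were 16 and 6 with day 9 embryo cells called at 1000 UMIs, against 16 and 2. The share of all genes called was not computed at that setting, nor at any other alternative except scaling to the median gene. The counts of members called at those settings therefore have no background beside them. The median of the scaling genes had a log2 ratio of -0.16 in hypoblast-like, -0.29 in trophectoderm-like, -0.31 in B or plasma cell-like and 0.10 in T or NK cell-like cells; scaling to it moved calls, and the share of all called genes that were higher was 68.0, 86.2 and 42.4% in the first 3 of these, against 54.8, 74.3 and 17.7%. No paired analysis was possible because each group held 1 library. With no minimum level, the median log2 ratio in epithelial clusters was 0.54 for the ligands and 0.36 for the proteases and inhibitors. Depth limits ITGB3, ITGB6 and pairs of chains, which rest on few UMIs.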
